A study of Mus musculus with 10 samples.

Results

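A set of 10 genes best known from T cells and natural killer (NK) cells were followed in mouse leukaemia cells sorted from marrow. They were Cd2, Ctla4, Prf1, Gzma, Gzmb, Klrd1, Cd247, Bcl11b, Il18rap and Cd3e, and all probe sets whose platform symbol was one of these 10 genes were taken. That gave 18 of the 45037 probe sets that are not array controls. The 10 genes were chosen by measured values, since levels and group differences on these same arrays were already known when they were picked. Their differences between groups are therefore given as a description, without a test.

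The allogeneic group held 5 samples, each from 1 C57BL/6 recipient infused with C3.SW marrow and spleen cells, and the syngeneic group held 5 samples, each from 1 C57BL/6 recipient infused with C57BL/6 marrow and spleen cells. All 10 recipients had been prepared with total body irradiation and 5-fluoruracil, and all received the same kind of leukaemia mixed into the graft, a C57BL/6 acute lymphoblastic leukaemia (NSTY ALL) with human p210 bcr/abl and a deletion in the Ink4a/Arf locus. Leukaemia was moved to newly transplanted animals every 2 to 3 weeks, and RNA was taken after 3 serial transplants from cells sorted on green fluorescent protein (GFP) into Trizol. The labels do not say whether animals of a group shared an earlier leukaemia donor, so p-values measure the spread between these samples, which may not be that of separate lines. They also leave out recipient age, the promoter behind GFP and whether the leukaemia was 1 clone.

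T cells recognise antigen through a receptor whose signal passes through the CD3 chains and the zeta chain, and CTLA-4 on their surface restrains them. Cytotoxic T cells and NK cells kill by releasing granules that hold perforin, which opens the target membrane, and granzymes, proteases that enter through it. NK cells also carry CD94, which pairs with NKG2 chains to read a non-classical MHC molecule on other cells, and both cell types respond to interleukin-18. In mice, CD2 is found on B cells as well as on T and NK cells. Allogeneic grafts carry T cells that can attack recipient cells, and spleen cells of either donor include lymphocytes.

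Values are quantile-normalized log2 intensities, and each array had a background limit, set at the 95th percentile of 27 control probe sets against bacterial RNA absent from the samples. The limits ran from 4.50 to 5.09 on allogeneic arrays and from 4.70 to 5.32 on syngeneic arrays. A level can be set against its own array's limit but not against the level of another probe set. Allogeneic animals 1, 3 and 4 had a raised lower quartile of deposited intensity (18.7 to 19.5), allogeneic animals 2 and 5 had 14.0 and 14.2, and the syngeneic animals had 13.8 to 14.4. Precision is limited by the small number of arrays.

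Judged on the probe set of highest mean, most of the genes were above background in every animal of both groups. The CD3 chain gene Cd3e and the granzyme gene Gzmb were not. Of the 18 probe sets, 8 lay above the limit on all 10 arrays, 7 on some arrays and 3 on none. Over all probe sets 50.7% lay above the limit on all 10 arrays, and 8 of 18 is no larger a share. The count by gene takes each gene's brightest probe set, and no share over all genes was set beside it. The 8 probe sets belonged to 8 genes, namely Cd2, Ctla4, Prf1, Gzma, Klrd1, Cd247, Bcl11b and Il18rap. The 3 on no array were the Gzmb probe set and 2 of the 4 Cd247 probe sets. The promoters of Gzma and Prf1, which were above background throughout, and of Gzmb and Cd3e, which were not, are shown so that these genes can be compared.

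The windows run from 250 bases before to 50 bases after the annotated start, 5′ to 3′ on the gene's strand, from RefSeq on GRCm38.p6. Capitals mark the RUNX core TGTGGT and the ETS core AGGAAG, on either strand.
Gzma, chr13:113100932-113101231, minus strand: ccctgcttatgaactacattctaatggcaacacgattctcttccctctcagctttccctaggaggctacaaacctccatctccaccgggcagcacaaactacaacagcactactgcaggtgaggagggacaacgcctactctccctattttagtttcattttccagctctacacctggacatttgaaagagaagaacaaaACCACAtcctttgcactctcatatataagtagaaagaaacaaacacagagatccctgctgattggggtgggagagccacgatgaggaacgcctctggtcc
Prf1, chr10:61297586-61297885, plus strand: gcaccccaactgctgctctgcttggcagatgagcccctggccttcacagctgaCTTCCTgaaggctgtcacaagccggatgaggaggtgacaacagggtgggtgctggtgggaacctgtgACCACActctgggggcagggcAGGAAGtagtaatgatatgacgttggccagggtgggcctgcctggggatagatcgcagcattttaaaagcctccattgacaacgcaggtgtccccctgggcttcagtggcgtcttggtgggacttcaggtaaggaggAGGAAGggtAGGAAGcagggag
Gzmb, chr14:56262285-56262584, minus strand: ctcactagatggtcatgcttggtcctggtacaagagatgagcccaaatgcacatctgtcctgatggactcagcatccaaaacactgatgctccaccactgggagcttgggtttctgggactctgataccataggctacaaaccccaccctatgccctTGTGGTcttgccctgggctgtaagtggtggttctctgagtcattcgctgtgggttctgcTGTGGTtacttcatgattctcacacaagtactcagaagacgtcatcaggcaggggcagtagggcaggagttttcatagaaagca
Cd3e, chr9:45009562-45009861, minus strand: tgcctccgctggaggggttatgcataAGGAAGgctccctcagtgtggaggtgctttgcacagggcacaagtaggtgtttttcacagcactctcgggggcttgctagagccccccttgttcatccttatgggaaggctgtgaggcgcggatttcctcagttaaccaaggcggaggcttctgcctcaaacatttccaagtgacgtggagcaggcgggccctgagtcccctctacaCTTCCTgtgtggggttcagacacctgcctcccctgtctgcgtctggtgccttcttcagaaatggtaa

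RefSeq windows were matched for 8 of the 10 genes, all but Cd2 and Klrd1. The RUNX letters stood in 4 of these 8 windows (Gzma, Gzmb, Prf1 and Il18rap) and in 16.8% of the 32851 windows of the same length. The ETS letters stood in 6 of the 8 windows and in 35.4% of all windows, and the 2 motifs do not overlap in the 4 windows printed. Gzma had 1 RUNX match and no ETS match, and Gzmb had 2 RUNX matches and no ETS match. Prf1 had 1 RUNX match and 4 ETS matches, and Cd3e had 2 ETS matches and no RUNX match. A match is a description of the letters and says nothing of binding.

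**Figure D1:**
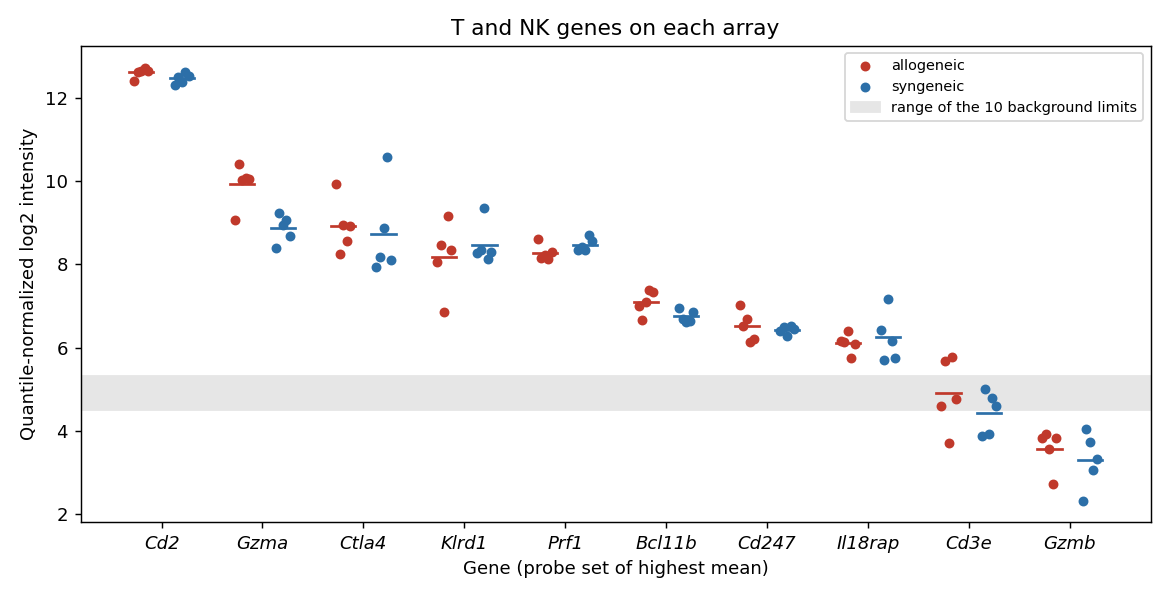
Quantile-normalized log2 intensity (vertical axis) of the probe set of highest mean of each of the 10 genes (horizontal axis), with 1 point per array, allogeneic left and syngeneic right, bars at group means and a grey band for the range of the 10 background limits. Cd2 lies near 12.5 on every array, Cd3e lies within and around the band, and Gzmb lies below it.

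Among the granule genes, Gzma, which encodes a tryptase-like granzyme, was higher on average in leukaemia from allogeneic recipients. It stood at 9.06, 10.40, 10.01, 10.07 and 10.04 in allogeneic animals 1 to 5, against 8.40, 9.22, 8.93, 9.06 and 8.68 in syngeneic animals 1 to 5. Allogeneic animals 2 to 5 lay above every syngeneic animal, and allogeneic animal 1 lay within the syngeneic range, so the groups overlapped. The mean difference in Gzma was 1.06 on the log2 scale (SE 0.26, 95% interval 0.48 to 1.63, 5 animals per group). Without allogeneic animal 1 it was 1.28, and without the 3 arrays of raised lower quartile, allogeneic animals 1, 3 and 4, it was 1.38.

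Prf1, the perforin gene, had levels of 8.61, 8.14, 8.22, 8.13 and 8.28 in allogeneic animals 1 to 5, against 8.35, 8.41, 8.34, 8.70 and 8.56 in syngeneic animals 1 to 5. The groups overlapped through allogeneic animal 1, while the other 4 allogeneic animals lay below every syngeneic one. The mean difference in Prf1 was -0.20 (SE 0.14, 95% interval -0.51 to 0.12), opposite in sign to that of Gzma. A second Prf1 probe set, above the limit on 9 of 10 arrays, differed by 0.035 (SE 0.22).

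Gzmb, the granzyme that cleaves after aspartate and starts apoptosis, was at or below the limit on every array. Its values were 2.73 to 3.92 in the allogeneic group and 2.33 to 4.05 in the syngeneic group, so no fold is given. Gzma was above the limit in those same animals, all 10 of them.

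Of the other genes of cytotoxic granules, 16 of 16 listed were measured and 0 passed limma's test over all probe sets in either direction, with 1 at an unadjusted p under 0.05. Their median difference was 0.007, beside a median of -0.014 over all probe sets. Of all probe sets 0.411% passed and 16.9% had an unadjusted p under 0.05 by limma. The counts of each list below are to be set beside these shares. Granzyme genes Gzmc, Gzmd, Gzme, Gzmf and Gzmg were above the limit on 0 arrays. Gzmm, a further granzyme gene, was above it on all 10, with means of 6.30 and 5.96 in the allogeneic and the syngeneic group (difference 0.34, SE 0.16, adjusted p = 0.303). Srgn, the proteoglycan that packs granules, and Ctsc, the peptidase that activates granzymes, were high on every array and differed by 0.014 and 0.065. Ctsw, a cathepsin of cytotoxic cells, had a difference of -0.93 (SE 0.26, adjusted p = 0.137), but it was above the limit on 0 allogeneic and 2 syngeneic arrays.

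Among the surface receptors, Cd2, an adhesion receptor, was far above background in every animal. It stood at 12.40, 12.62, 12.65, 12.72 and 12.65 in allogeneic animals 1 to 5, against 12.30, 12.49, 12.38, 12.62 and 12.52 in syngeneic animals 1 to 5. These values overlapped, with a mean difference of 0.14 (SE 0.12, 95% interval -0.13 to 0.41). Cd48, the ligand of CD2 in mice, was also above the limit on all arrays, with means of 12.20 in the allogeneic and 12.31 in the syngeneic group. A list of CD2 partners and receptors of its wider family, such as Slamf1, Slamf6 and Ly9, had 8 genes measured. All 8 were above the limit on all 10 arrays, and 0 of the 8 passed the test, with 1 at an unadjusted p under 0.05. Slamf7, a receptor of the same family, was that one (difference 0.47, SE 0.18, adjusted p = 0.238).

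Ctla4 differed more between animals than between groups. It stood at 9.92, 8.24, 8.93, 8.56 and 8.91 in allogeneic animals 1 to 5, against 7.93, 8.18, 8.87, 10.57 and 8.10 in syngeneic animals 1 to 5. Syngeneic animal 4 was the highest and allogeneic animal 1 the next, and the groups overlapped. The mean difference in Ctla4 was 0.18 (SE 0.51, 95% interval -0.96 to 1.32), and it was 0.64 without syngeneic animal 4. CTLA-4 and CD28 share the ligands CD80 and CD86, whose genes are part of a list of 7 genes around the pair, all measured. Of these 7, 1 rose and 6 did not pass, with a median difference of 0.22. Cd86 was the one that rose, with values of 7.54 to 8.12 in allogeneic and 6.36 to 6.92 in syngeneic animals (difference 1.17, SE 0.17, limma adjusted p = 0.0206, on 1 of its 2 probe sets). Its call was lost when any 1 of allogeneic animal 4 and syngeneic animals 1, 2, 3 and 5 was left out. The call was also lost with arrays set to a common median and with the animal number as a replicate block. This list was chosen with earlier results of these data known. Cd28 itself was above the limit on 0 arrays. Icos, a related receptor, was above it on 3 allogeneic and 0 syngeneic arrays, with a difference of 1.17 (SE 0.40, adjusted p = 0.192).

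Klrd1, which encodes CD94, ranged widely in the allogeneic group. Its levels were 8.05, 8.45, 6.86, 9.17 and 8.34 in allogeneic animals 1 to 5, against 8.26, 8.34, 9.34, 8.12 and 8.29 in syngeneic animals 1 to 5. Allogeneic animal 3 was the lowest and syngeneic animal 3 the highest, and the groups overlapped. The mean difference in Klrd1 was -0.30 (SE 0.40, 95% interval -1.20 to 0.59). The NKG2 chain genes that CD94 pairs with were near background, with Klrc1 above the limit on 2 of 10 arrays and Klrc2 and Klrc3 on 0. A list of genes around CD94 had 6 measured, among them Klrk1, an NK receptor gene that is not a CD94 partner. Of these 6, 0 passed and 2 had an unadjusted p under 0.05, Tyrobp and Klrk1, the latter above the limit on 0 arrays. The median difference of the 6 was 0.40. That median includes 3 genes above the limit on 0 arrays. The signalling adaptor gene Tyrobp was above the limit on all arrays and had allogeneic values all above the syngeneic ones (difference 0.49, SE 0.17, adjusted p = 0.192). Hcst, the other adaptor gene, differed by 0.42 (SE 0.23, adjusted p = 0.381).

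Il18rap, the accessory chain of the interleukin-18 receptor, stood at 6.16, 6.12, 6.40, 5.74 and 6.08 in allogeneic animals 1 to 5, against 6.43, 5.70, 7.16, 6.16 and 5.76 in syngeneic animals 1 to 5. Syngeneic animal 3 was the highest and the groups overlapped, with a mean difference of -0.14 (SE 0.27, 95% interval -0.75 to 0.47). Its second probe set was above the limit on 0 allogeneic and 2 syngeneic arrays. The other receptor chain gene, Il18r1, was above it on 3 allogeneic and 5 syngeneic arrays. Of the 7 measured genes of this receptor and its signalling, 1 rose and 6 did not pass, with a median difference of 0.25. Casp1, the protease that matures interleukin-18, was the one that rose (difference 0.90, SE 0.16, limma adjusted p = 0.0492). It passed in only 1 of the 10 fits that left out 1 animal, the one without allogeneic animal 1. Nor did it pass without quantile normalization, with a common median or with the animal number as a replicate block. This list, too, was chosen with earlier results known.

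Of the genes for T-cell receptor signalling and T-cell identity, the zeta chain gene Cd247 had 1 of its 4 probe sets above the limit on all 10 arrays. On that probe set it stood at 7.03, 6.52, 6.69, 6.14 and 6.20 in allogeneic animals 1 to 5, against 6.39, 6.50, 6.28, 6.53 and 6.44 in syngeneic animals 1 to 5. The allogeneic values spread to both sides of the syngeneic ones, and the SD was 0.36 in the allogeneic and 0.096 in the syngeneic group. The mean difference in Cd247 was 0.089 (SE 0.18, 95% interval -0.31 to 0.49). Another Cd247 probe set was above the limit on 4 allogeneic and 3 syngeneic arrays and differed by 0.070 (SE 0.23).

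Bcl11b, a transcription factor that commits progenitors to the T lineage, stood at 7.00, 6.67, 7.08, 7.38 and 7.34 in allogeneic animals 1 to 5, against 6.96, 6.70, 6.61, 6.63 and 6.86 in syngeneic animals 1 to 5. Allogeneic animals 1, 3, 4 and 5 lay above every syngeneic animal and allogeneic animal 2 among them. The mean difference in Bcl11b was 0.34 (SE 0.16, 95% interval -0.022 to 0.71). Its other 3 probe sets were above the limit on 1 to 3 of 10 arrays. A list of T-lineage transcription factors had 9 measured outside the 10 genes, including Bcl11a, which the B-lymphoid progenitor list also holds. Among these 9, 0 passed, 2 had an unadjusted p under 0.05 and the median difference was -0.15. Those 2 were Bcl11a, the paralogue used in B-cell development (difference -0.97, SE 0.32, adjusted p = 0.177 on its probe set of highest mean, with 1 of its 7 probe sets passing), and Tox (difference -0.74, SE 0.235, adjusted p = 0.169). Gata3, Runx3, Lef1 and Notch1 were above the limit on all 10 arrays.

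Cd3e, a core chain of the T-cell receptor complex, was near background. It stood at 4.59, 5.67, 3.72, 5.78 and 4.77 in allogeneic animals 1 to 5, against 3.88, 5.02, 3.92, 4.79 and 4.59 in syngeneic animals 1 to 5. It exceeded the limit in 3 allogeneic animals and 1 syngeneic animal, and the groups overlapped (difference 0.47, SE 0.41, 95% interval -0.44 to 1.38). The Cd3e difference was 0.277 without allogeneic animal 2, 0.768 without allogeneic animal 3, 0.252 without allogeneic animal 4 and 0.098 with low values set to the limit. Of 12 measured genes of T-cell receptor signalling, 0 passed, 2 had an unadjusted p under 0.05, and the median difference was -0.17. Lat, an adaptor that gathers the signal at the membrane, had means of 6.72 and 7.50 in the allogeneic and the syngeneic group (difference -0.78, SE 0.27, adjusted p = 0.192). Lcp2, a further adaptor, had allogeneic values all below the syngeneic ones (difference -0.90, SE 0.33, adjusted p = 0.215). The kinase gene Zap70 was above the limit on all 10 arrays and differed by -0.30 (SE 0.25, adjusted p = 0.579).

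**Figure D2:**
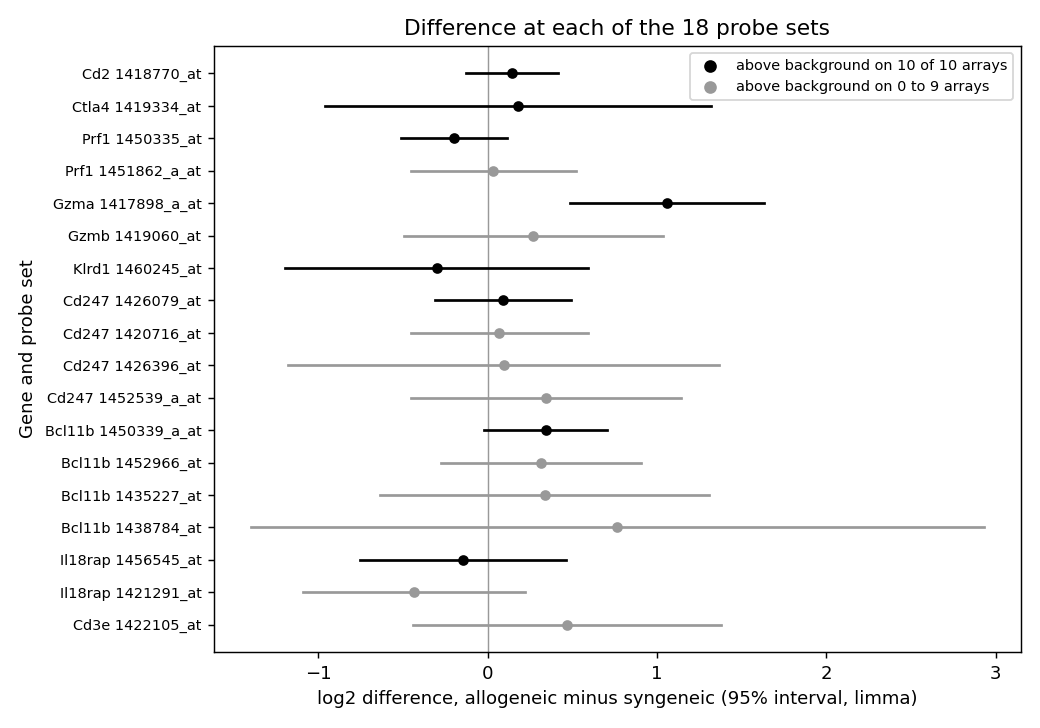
Mean log2 difference, allogeneic minus syngeneic, of each of the 18 probe sets (horizontal axis, 95% interval from limma), with 5 animals per group. Black marks the 8 probe sets above background on all 10 arrays. The interval of Gzma, 0.48 to 1.63, lies above 0, and those of the other 17 probe sets include 0. The genes were picked with this contrast known, so the intervals are a description and not a test.

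Over the 18 probe sets, 0 passed limma's test at an adjusted p under 0.05, beside 0.411% of all probe sets (122 higher and 63 lower). At an unadjusted p under 0.05 there was 1 of 18, Gzma, beside 16.9% of all probe sets. Groups did not overlap for 0 of 18, beside 4.74% of all. Nothing is read from these counts, because the contrast was known when the genes were picked. The whole-table count of 185 became 2035 without allogeneic animal 1. The 8 probe sets above background throughout had a median difference of 0.12, with 5 of 8 positive, beside a median of -0.017 over all probe sets above background throughout.

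Markers of T and NK cells outside the 10 genes were measured because the sort could hold lymphocytes of the graft. In such bulk samples, fewer cells of a type and less RNA per cell cannot be told apart. Of 29 measured T and NK markers, 4 were above the limit on all 10 arrays (Cd8a, Zap70, Lat and Klrg1) and 10 on none. Cd8a had 5 probe sets, of which only 2 were above the limit on any array. Among defining T-cell genes, Cd3d was above it on 3 allogeneic and 5 syngeneic arrays, Cd3g on 2 and 0, Cd4 on 1 and 1, Thy1 on 1 and 0, and Cd6, Cd28 and Cd8b1 on none. The Tcra probe set stood at 6.67 and 6.16 in allogeneic animals 3 and 4, above the limit there, and at 1.66 to 4.43 on the other 8 arrays, none above its limit.

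Most defining NK-cell genes were also at or below the limit. Ncr1, which encodes the activating receptor NKp46, Eomes, a transcription factor of NK cells, and Klrk1 and Il2rb, a pair of NK receptor genes, were above it on 0 arrays. Nkg7, a granule membrane protein gene of cytotoxic cells, was above it on 1 allogeneic and 1 syngeneic array. Klrg1, an inhibitory receptor gene, was the single marker of the 15 on the NK list above it on all 10 arrays. By limma 0 of 14 T-cell and 0 of 15 NK-cell markers passed, with 3 and 1 at an unadjusted p under 0.05. Their median differences were 0.036 for the T list and 0.33 for the NK list.

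Summed linear intensity of the 14 T-cell markers ran from 490 to 709 in allogeneic and from 591 to 693 in syngeneic animals. For the 15 NK-cell markers it ran from 257 to 342 in allogeneic and from 226 to 283 in syngeneic animals. These sums include markers below background. The mean log2 level of the NK list did not overlap, at 3.85 to 4.02 in allogeneic and 3.36 to 3.80 in syngeneic animals. Of its 15 markers, 1 was above the limit on at least 5 arrays and 7 on none. This mean is therefore mostly of values near or below background. The 1 marker, Klrg1, differed by -0.043 (SE 0.26). The mean log2 level of the T list overlapped, at 4.52 to 5.18 in allogeneic and 4.48 to 4.65 in syngeneic animals. Klrk1 had the smallest p of the NK list (difference 1.59, SE 0.50, limma adjusted p = 0.167), with all its values below the limit. The part of NK cells in the Gzma values was not tested.

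Most B-lymphoid progenitor genes, which mark the leukaemia, were far above the limit in all animals, while Dntt stood nearer to it, at 6.27 to 6.98. Of 14 measured, 13 were above it on all 10 arrays, and their summed intensity was 90002 to 91320 in allogeneic and 88984 to 90780 in syngeneic animals. Cd79a, a B-cell receptor signalling chain, had means of 13.04 in both groups, and Vpreb1, a surrogate light chain, had 13.67 and 13.64 in the allogeneic and the syngeneic group. Pax5, a B-lineage transcription factor, was the exception, above the limit on 2 allogeneic and 4 syngeneic arrays. On the probe set of highest mean none of the 14 passed the test and 2 had an unadjusted p under 0.05, while 1 of the 7 Bcl11a probe sets passed.

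**Figure D3:**
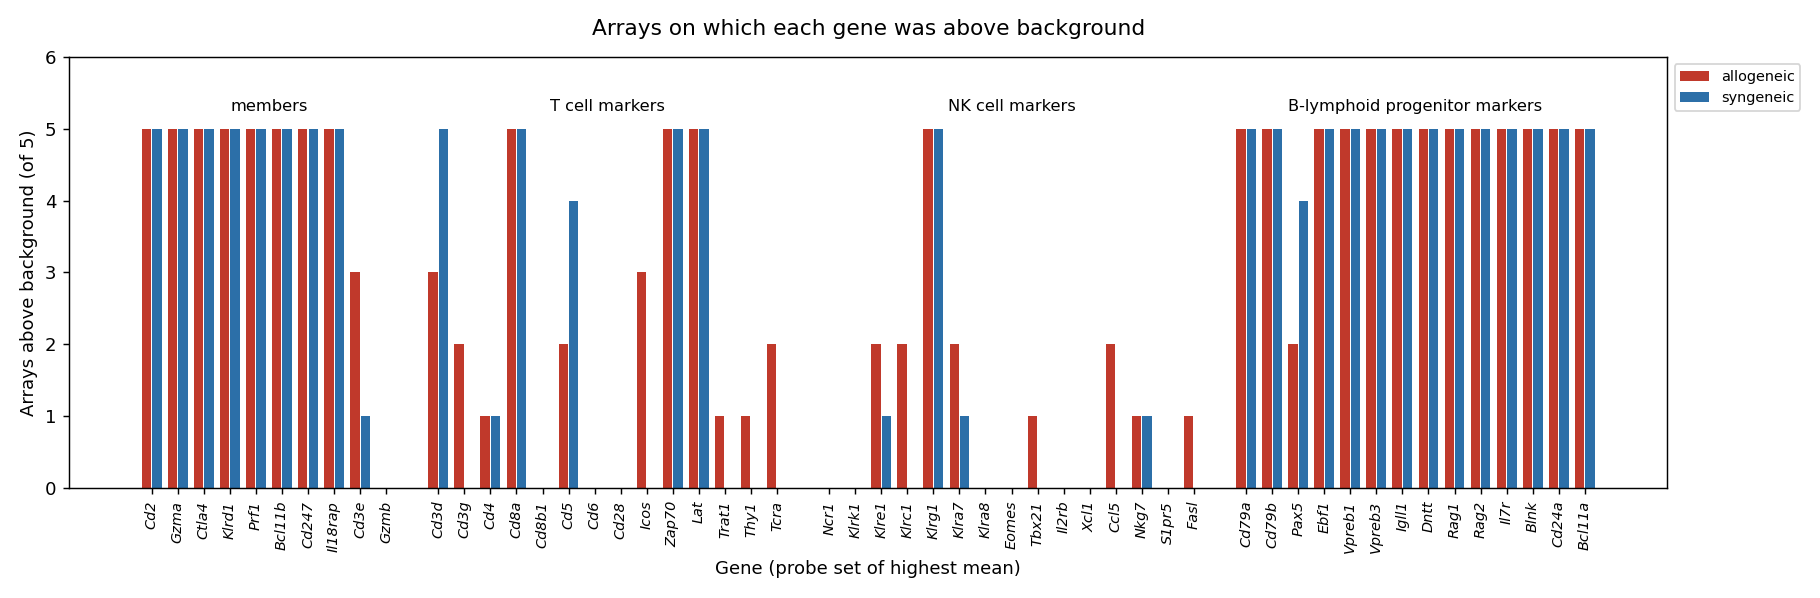
Number of arrays of each group (vertical axis, of 5) on which each gene's probe set of highest mean lay above its array's background limit, for the 10 genes and all measured markers of T cells, NK cells and B-lymphoid progenitors (horizontal axis). The 8 genes from Cd2 to Il18rap reach 5 in both groups, as do 4 of the 29 T and NK markers and 13 of the 14 B-lymphoid progenitor markers.

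Summaries of some other marker lists also differed between groups. Summed intensity of the 12 macrophage and monocyte markers did not overlap between groups, at 13110 to 14816 in allogeneic and 9754 to 12004 in syngeneic animals, and Cd14 was above the limit on 0 arrays. Such a sum rests mostly on bright probe sets such as those of Mpeg1 (difference 0.68) and Fcgr3 (0.21). Of the 12 differences 4 were positive, and their median was -0.10. The mean log2 level of these markers did overlap. In allogeneic animal 1, whose Gzma was the lowest of its group, it was 6.09, against 7.43 to 7.93 in the other allogeneic animals and 6.99 to 7.37 in the syngeneic ones. The mean log2 level of the 6 measured dendritic cell markers did not overlap, at 4.93 to 5.57 in allogeneic and 4.66 to 4.92 in syngeneic animals, with sums of 748 to 1354 in allogeneic and 584 to 1085 in syngeneic animals. Of these 6, 3 were above the limit on all 10 arrays and 2 on none, and the median difference was 0.475. Zbtb46, a transcription factor of dendritic cells, had means of 6.87 in allogeneic and 6.29 in syngeneic animals (difference 0.58, SE 0.16, limma adjusted p = 0.138). The 8 granulocyte markers had sums of 1289 to 7629 in allogeneic and 1907 to 4757 in syngeneic animals. The 6 mast cell and basophil markers, another kind of cell that can hold granule proteases, had sums of 192 to 304 in allogeneic and 158 to 231 in syngeneic animals. The part of these cells in the Gzma values was not tested.

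Whether the 18 probe sets varied with other T or NK genes inside the groups was tested with limma on all probe sets, with the group as a term. The T-cell marker level was the mean of Cd3d, Cd8a, Cd5, Zap70 and Lat, the 5 T markers above the limit on at least 5 arrays. It was lowest in allogeneic animals 3 and 4 (5.47 and 5.55), where Tcra was above the limit and Cd3d (2.84 and 4.35) below it. Slopes on this level therefore cannot be read as co-variation with the number of T cells. None of the 18 probe sets passed against the T-cell marker level, and 0.14% of all probe sets did. At an unadjusted p under 0.05 there was 1 of 18, the weaker Prf1 probe set (slope 0.78, SE 0.32), beside 15.9% of all. The stronger Prf1 probe set had a slope of -0.075 (SE 0.26), and that of Gzma was 0.37 (SE 0.47, 95% interval -0.69 to 1.44).

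The NK-cell marker level came down to the single gene Klrg1. Against it 0 of 18 passed, also 0 at an unadjusted p under 0.05, beside 0% and 9.34% of all probe sets. Gzma had a slope of 0.35 (SE 0.34, 95% interval -0.42 to 1.12) and Klrd1 one of -0.30 (SE 0.55, 95% interval -1.55 to 0.95). Intervals of this width do not show that the genes varied independently of the markers.

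The genes also did not vary as 1 block over the 10 arrays. Between the 8 genes above background throughout there were 28 pairs, compared after group means were removed, since each group alone has too few animals for a correlation. Pearson's r ran from -0.60 to 0.76 with a median of -0.13, and it was positive in 11 of 28 pairs. By permutation within groups, 3 pairs had an unadjusted p under 0.05 for r and 0 passed after Benjamini-Hochberg adjustment over the 28 (lowest adjusted p = 0.412). By Spearman's rho 1 pair had an unadjusted p under 0.05 and 0 passed (lowest adjusted p = 0.715). That pair was Klrd1 and Cd247, with a rho of -0.67 (permutation p = 0.0312, adjusted p = 0.715). It also had the lowest r, -0.60 (permutation p = 0.169, adjusted p = 0.787). Without allogeneic animals 3 and 4, the 2 arrays farthest from the Klrd1 median after group means were removed, r was -0.47.

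Ctla4 and Prf1 gave the highest r, 0.76 (permutation p = 0.0154, adjusted p = 0.412), with a rho of 0.52 (permutation p = 0.128, adjusted p = 0.715). Without the 2 arrays farthest from the Ctla4 median, allogeneic animal 1 and syngeneic animal 4, r was 0.061, so the relation rests on them. Cd2 and Gzma had an r of 0.74 (permutation p = 0.0370, adjusted p = 0.412) and a rho of 0.47 (permutation p = 0.201, adjusted p = 0.850), and r was -0.071 without allogeneic animal 1 and syngeneic animal 1. Prf1 and Cd247 had an r of 0.68 (permutation p = 0.0441, adjusted p = 0.412) and a rho of 0.68 (permutation p = 0.0736, adjusted p = 0.715), and r was 0.13 without allogeneic animal 1 and syngeneic animal 4. The granule genes Prf1 and Gzma had an r of -0.54 (permutation p = 0.151, adjusted p = 0.787) and a rho of -0.39 (permutation p = 0.304, adjusted p = 0.850), and r was -0.17 without allogeneic animal 1 and syngeneic animal 4. Allogeneic animal 1 was among the arrays left out in each of these pairs.

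**Figure D4:**
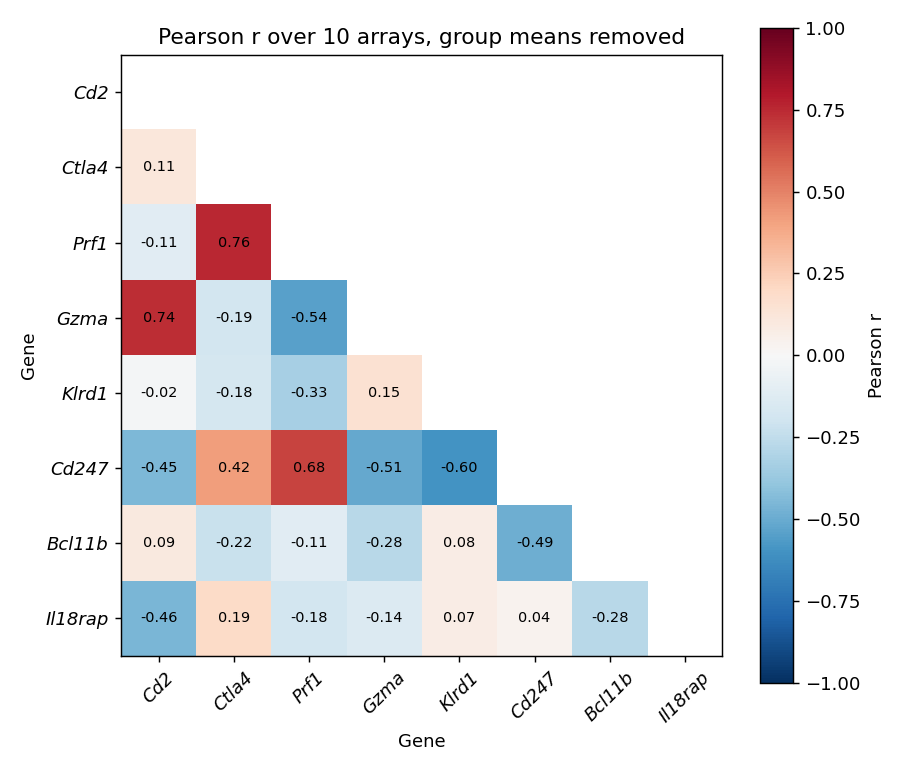
Pearson r between the 8 genes above background throughout (both axes), over 10 arrays after group means were removed, with the value in each cell and the colour scale from -1 to 1. High positive values stand at Ctla4 with Prf1 (0.76), Cd2 with Gzma (0.74) and Prf1 with Cd247 (0.68), and 17 of the 28 values are not positive.

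The genes with the most similar pattern over the arrays were of many kinds. For each of the 8 genes the 3 nearest of 12184 genes above background on at least 5 arrays were found by Pearson's r over the 10 arrays after group means were removed, as a description with no test. None of these 24 is on the T or NK marker lists, but only 6 genes of those lists were among the 12184 searched, so nothing is read from that count. Gzma was nearest to Cops6 (r = 0.98), Zfp341 (0.96) and Cutc (0.95), and Cd2 to Bsg (0.97), Mrps28 (0.95) and Galk2 (0.94). Ctla4 was nearest to Litaf (0.97), Prf1 to Htatsf1 (0.94), Klrd1 to Aasdhppt (0.96), Cd247 to Ate1 (0.98), Bcl11b to Hbb-bh1 (0.90) and Il18rap to Pip5k1a (0.91). The arrays share preparation and normalization, and 24.6% of the 12184 genes had an r over 0.5 with Gzma, against 2.76% with Bcl11b. A high r was thus common for some of the genes and rarer for others, and the cause was not tested.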

How the data were processed

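Affymetrix arrays were hybridised with biotinylated cDNA made with NuGEN kits, per the labels' protocols. Values in the deposited table are intensity on a linear scale, and the sources used here do not give how the authors summarised and scaled them. Intensities of 45101 probe sets were log2-transformed and then quantile normalized across the 10 arrays, and 64 controls were left out of the tests. Probe sets were named from the platform annotation (34945 with 1 symbol), with 34741 symbols looked up by gene identifier in the GRCm38.p6 table. Members were matched on the platform symbol. List genes were represented by their probe set of highest mean.

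Groups were compared with limma 3.58.1 in R 4.3.3 (lmFit, eBayes) over 45037 probe sets, with Benjamini-Hochberg adjustment and a threshold of 0.05, 2-sided. Fits were checked on simulated data. Correlations used 100000 permutations within groups, 2-sided. The members and the 18 lists (11 of cell types and 7 of pathways, 149 measured genes) were chosen with earlier results of these data known. Named were all members, the nearest 3 genes of each, list genes that passed or had the smallest p, and defining markers. Other list genes in the text were named after their values were seen, as were the pairs Prf1 and Gzma and Klrd1 and Cd247. Lck and Klrb1c were not analysed here.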

Additional observations from a re-analysis of the deposited data

Results flagged for a closer look

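The 10 member probe sets above background on at least 5 arrays were searched in each group for an animal set apart from the other 4. This made 20 searches and found 1, where chance gives about 1 in 20. Klrd1, the CD94 gene, stood at 9.34 in syngeneic animal 3, against 8.12 to 8.34 in the other 4 syngeneic animals.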

How the results depend on the processing

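The Gzma difference ran from 0.93 to 1.38 over 18 other settings. Its limma adjusted p was under the threshold in 2 of them, both of which leave out allogeneic animal 1, the allogeneic animal inside the syngeneic range, and as the gene was chosen on this contrast nothing is read from that. No other member probe set was under it in any. The filter on low values left 10 of the 18 to test. Of the 8 probe sets above background throughout, 4 differences changed sign, those of Ctla4 (-0.16 to 0.64), Klrd1 (-0.55 to 0.028), Cd247 (-0.069 to 0.18) and Il18rap (-0.28 to 0.084), and so did 7 of the other 10. That of Cd3e ran from 0.098 to 0.81. The 8 probe sets above background on 10 arrays numbered 8 also with 2 other limits chosen after seeing the data. Of the differences only that of the second Prf1 probe set moved by more than 1 SD, to 0.47 without those 3 arrays. Over all probe sets 185 were called, but 518 with low values set to the limit, 616 after the filter on low values, 106 with 1 probe set per gene, 482 with trend and robust settings, 7 with the animal number as a replicate block and 2035 without the 3 arrays. Leaving out 1 animal gave 70 to 2035: 2035 without allogeneic animal 1, 86 without allogeneic 4, and 73, 76, 85, 112 and 70 without syngeneic 1, 2, 3, 4 and 5. The 2 called list genes became 1 without quantile normalization, 0 with a common median, 0 with the replicate block, 4 without the 3 arrays, and 0 to 5 without 1 animal. The labels do not say that animal numbers pair the samples, same-numbered animals had correlations of -0.24 to 0.37, and 2 of 5 correlated best with their own number. On the T-cell marker level 63 probe sets were called, but 0 without quantile normalization, 242 after the filter, 1676 without the group term, and 0 to 1103 without 1 animal: 109 without allogeneic 1, 1 without allogeneic 2, 1103 without allogeneic 4, 167 without syngeneic 2 and 0 without any of the other 6. On the NK-cell marker level 0 were called in any of these fits. The causes were not tested. Probe sets near background limit what can be said of Gzmb and Cd3e.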

Other observations

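Genes that regulatory T cells express were also measured. Foxp3, their defining transcription factor, was above background on 0 of 10 arrays. Il2ra, the interleukin-2 receptor alpha chain gene, was above it on all 10, with values of 8.16 to 9.30 in allogeneic and 7.49 to 8.04 in syngeneic animals (difference 0.79, SE 0.215, limma adjusted p = 0.131). Tnfrsf18, a costimulatory receptor gene, had means of 9.44 in allogeneic and 8.95 in syngeneic animals (difference 0.49, SE 0.20, adjusted p = 0.254). Tnfrsf4, a relative of it, stood at 4.20 in allogeneic animal 3 and at 7.57 to 8.31 in the other allogeneic animals, against 7.16 to 7.98 in syngeneic animals. None of the 6 genes of this list passed the test, and 2 had an unadjusted p under 0.05.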
